A study of Mus musculus with 3 samples.

Results

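NF-κB is a family of dimeric transcription factors built from the subunits Rela, Rel, Relb, Nfkb1 and Nfkb2, and it is held in check by the IκB proteins. Of the 10 genes listed for this family (these subunits, the inhibitors Nfkbia, Nfkbib, Nfkbie and Nfkbiz, and Bcl3), 9 were measured, by 18 probe sets that carry a member as their only gene symbol, among 18193 named genes in all. Nfkb1 was not analysed here. In resting T cells, dimers of these subunits sit in the cytoplasm bound to the classical inhibitors IκBα (Nfkbia), IκBβ (Nfkbib) and IκBε (Nfkbie). Stimulation through the T cell receptor and CD28 leads the IκB kinases to mark these inhibitors for destruction, and the freed dimers enter the nucleus. Bcl3 and Nfkbiz (IκBζ) belong to the same structural family but act in the nucleus, where they bind mainly the products of Nfkb1 and Nfkb2 and raise or lower transcription of particular genes. Several members are themselves NF-κB targets, which makes the pathway self-limiting.

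The RNA came from CD4+CD25- T cells of spleen and lymph node, purified from female BALB/c mice aged 6 to 8 weeks that lacked both Stat6 and T-bet. Activation lasted 2 days and used antibodies to CD3 (5 µg/ml) and CD28 (1 µg/ml) with the CD3 antibody bound to the plate. One culture received IL-6 (10 ng/ml) with TGFbeta (5 ng/ml), another IL-6 (10 ng/ml) with IL-23 (10 ng/ml), and the third TGFbeta (5 ng/ml) alone. No culture lacked cytokines and no cells with intact Stat6 or T-bet were measured, so every value belongs to activated, double-deficient cells. Each condition has 1 array and no replicate, so no p-value can be given. How many mice were pooled is not given in the labels. The study set IL-6/TGFbeta against TGFbeta to look for genes of Th17 polarization, and against IL-6/IL-23 to narrow them to those tied to IL-10.

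Levels are quantile-normalized intensities in arbitrary units, and ratios are on the log2 scale. For ratios, values below a floor of 74.2, taken from probe sets of genes of other tissues, were raised to the floor. A ratio was read only where the brighter of its 2 arrays exceeded the floor. Genes are called higher or lower below where the ratio between 2 arrays was at least 2-fold and the brighter of them exceeded the floor. The error beside a ratio is the SD between probe sets of the same gene, which was 0.22 for IL-6/TGFbeta over TGFbeta, 0.29 for IL-6/TGFbeta over IL-6/IL-23 and 0.29 for IL-6/IL-23 over TGFbeta. It leaves out differences between cultures and arrays, so multiples of it are no test of a difference between conditions. Over all genes, 22.4%, 20.7% and 18.3% of ratios lay beyond 2 of these SDs, in the same order. Probe sets of different genes differ in brightness, so only ratios are set side by side between genes.

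Deposited intensities had medians of 28.1 with IL-6/TGFbeta, 17.8 with IL-6/IL-23 and 35.8 with TGFbeta, and each array had between 8299 and 8432 genes above the floor. Probe sets of the deleted genes gave signal on every array (Stat6 223, 191 and 259, and Tbx21 118, 205 and 190, in the same order), and since the labels do not give the deleted part, this does not check the genotype. The 7 measured T cell markers were above the floor on all arrays, with summed intensities of 22309, 24711 and 22873 in the same order. All 4 measured B cell markers (Cd79a, Cd79b, Ms4a1 and Pax5) lay below the floor on every array. Of 8 myeloid and dendritic markers, 1 was above the floor with IL-6/TGFbeta (Csf1r, 79.4), 0 with IL-6/IL-23 and 1 with TGFbeta (Mpeg1, 153). Of 5 CD8 T cell and NK cell markers, 2, 2 and 3 were above it. Cd8a (80.2, 120 and 145) and Cd8b1 (104, 174 and 140) were above it on every array and lowest with IL-6/TGFbeta. Eomes was above it with TGFbeta alone (107), and Ncr1 and Klrd1 were below it on every array. Whether CD8 T cells contributed to the values of other genes was not tested. In bulk RNA, fewer cells of a type and less RNA per cell cannot be told apart.

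The members fell into distinct orders over the 3 arrays. Nfkb2, Rel, Nfkbia, Nfkbie and Nfkbiz read lowest with IL-6/TGFbeta, in all 13 of their probe sets above the floor. Bcl3 ran the opposite way and read highest with IL-6/TGFbeta. These orders held in the setting used here and in all 6 alternatives that recompute the ratios. Not all 6 could have changed them. At the levels read, the 2 changes of floor could not alter these orders. For Rel and Bcl3, with a single probe set each, only the 2 scalings could have done so. The 5 genes were grouped because they were lowest in every setting, so the count of their probe sets partly repeats that choice. In the setting used here alone, 6 members read lowest with IL-6/TGFbeta, Relb among them, and 2 read highest, Bcl3 and Rela. Relb was lowest there in 6 of 7 settings. The share of all genes that read lowest on that array was not counted. For Rela, Relb and Nfkbib the ratios of IL-6/TGFbeta to the other arrays lay between -0.51 and 0.17, and the sign of at least 1 of them depended on the setting.

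**Figure D1:**
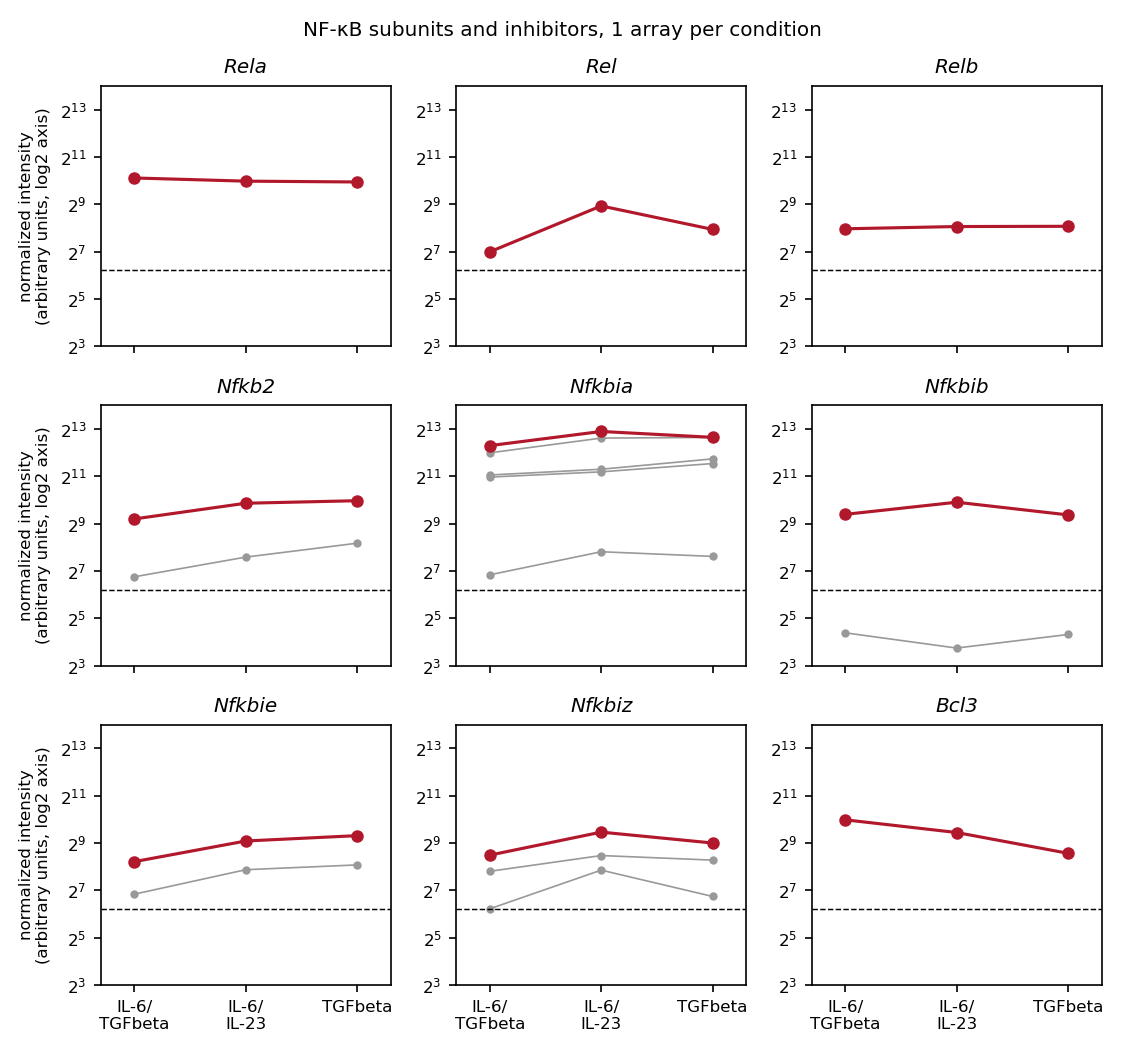
Normalized intensity (arbitrary units, log2 axis) of each measured member on the IL-6/TGFbeta, IL-6/IL-23 and TGFbeta arrays. Each line is 1 probe set, red for the brightest of the gene and grey for the others, and the dashed line is the floor of 74.2. Rel peaks with IL-6/IL-23, Nfkb2 and Nfkbie are lowest with IL-6/TGFbeta, and Bcl3 is highest there.

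Because NF-κB is known to act on genes of its own pathway, the bases before the annotated start are shown for Rel, Nfkb2, Nfkbia, Nfkbie and Bcl3. Whether κB matches relate to the levels on the arrays was not tested. The sequences are from RefSeq (GRCm38.p6). Each line gives the 120 bases before the start, 5′ to 3′ along the gene, and capitals mark matches on either strand to the κB consensus. They lie at chr11:23770970-23771089 (minus strand) for Rel, chr19:46304617-46304736 (plus strand, the first of 3 listed starts) for Nfkb2, chr12:55492648-55492767 (minus strand) for Nfkbia, chr17:45555580-45555699 (plus strand) for Nfkbie and chr7:19822756-19822875 (minus strand) for Bcl3.
Rel: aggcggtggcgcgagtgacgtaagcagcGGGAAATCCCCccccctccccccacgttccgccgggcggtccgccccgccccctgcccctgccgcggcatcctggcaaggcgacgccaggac
Nfkb2: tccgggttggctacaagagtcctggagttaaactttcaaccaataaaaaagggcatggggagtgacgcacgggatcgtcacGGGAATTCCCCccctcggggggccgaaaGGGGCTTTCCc
Nfkbia: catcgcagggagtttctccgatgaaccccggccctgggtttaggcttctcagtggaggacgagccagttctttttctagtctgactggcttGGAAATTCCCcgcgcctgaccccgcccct
Nfkbie: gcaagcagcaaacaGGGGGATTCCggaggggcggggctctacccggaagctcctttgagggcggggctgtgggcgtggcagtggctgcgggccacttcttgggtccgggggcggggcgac
Bcl3: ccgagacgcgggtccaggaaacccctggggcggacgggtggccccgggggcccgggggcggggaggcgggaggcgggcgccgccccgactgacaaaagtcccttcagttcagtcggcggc

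Of the 7 members in the promoter table, 4 held the κB consensus in the 250 bases before at least 1 listed start, namely Rel, Nfkb2, Nfkbia and Nfkbie. Counted by window, 6 of the members' 9 windows held it, all 3 of Nfkb2 among them, beside 3.90% of 32851 such windows over all genes. The members' windows were 57.6% to 77.6% G and C, and windows of like composition were not set beside them. In Rel and Nfkb2, a run of 11 bases matches at 2 overlapping positions. No match was found in the windows of Rela, Nfkbib and Bcl3, which says only that these letters are not there. Promoters of Relb and Nfkbiz are not in the table. The pattern TTCNNNGAA, to which STAT proteins can bind, was searched on both strands as well and was present in 7.02% of all windows. Among the members it occurred in the first Nfkb2 window, between 148 and 140 bases before the start.

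Among the subunits with a transactivation domain, Rel differed most between conditions. Rel encodes c-Rel, the lymphocyte-enriched subunit that drives Il2 and other activation genes. Rel read 128 with IL-6/TGFbeta, 489 with IL-6/IL-23 and 246 with TGFbeta, so IL-6/IL-23 was highest and IL-6/TGFbeta lowest. It was 3.83-fold lower with IL-6/TGFbeta than with IL-6/IL-23 (-1.94), the 62nd lowest ratio of 8774 genes. Against TGFbeta the IL-6/TGFbeta ratio of -0.95 stayed short of 2-fold, and IL-6/IL-23 over TGFbeta stood just short of it as well, at 0.99. After median scaling both ratios of Rel passed 2-fold, at -1.03 and 1.06. The quantile-normalized ratios of -1.94, -0.95 and 0.99 are 6.77, 4.33 and 3.37 times the SD between probe sets. Rel was measured by a single probe set. Its value of 128 with IL-6/TGFbeta lay within 2-fold of the floor. With the floor doubled to 148, the ratios over IL-6/IL-23 and over TGFbeta were bounds of -1.72 and -0.73. Without scaling, the IL-6/IL-23 over TGFbeta ratio of Rel was 0.05, beside a median of -0.85 over all genes.

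Rela and Relb were close to level. Rela encodes p65, the main activating subunit of the classical pathway, and read 1109 with IL-6/TGFbeta, 1011 with IL-6/IL-23 and 987 with TGFbeta. Relb, the subunit of the alternative pathway, read 251, 268 and 270 in that order. All ratios of these 2 genes lay within 1 SD between probe sets, from -0.11 to 0.17. With 1 array each, a smaller difference than that spread was not detectable.

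Nfkb2 encodes p100, which restrains Relb until it is processed to p52. Nfkb2 read 588 with IL-6/TGFbeta, 931 with IL-6/IL-23 and 1003 with TGFbeta. Its ratio to TGFbeta was -0.77, and its dimmer probe set (108, 192 and 289) gave -1.42, so whether Nfkb2 passes 2-fold depends on the probe set. Over IL-6/IL-23 the 2 probe sets gave -0.66 and -0.83. They gave -0.11 and -0.59 for IL-6/IL-23 over TGFbeta. Without scaling the brighter one gave -1.01, beyond 2-fold, beside a median of -0.85 over all genes.

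The classical inhibitors differed in how far they moved. Nfkbie read 296 with IL-6/TGFbeta, 542 with IL-6/IL-23 and 634 with TGFbeta. It was 2.14-fold lower with IL-6/TGFbeta than with TGFbeta (-1.10), and its other probe set gave -1.24. The ratio to IL-6/IL-23 was -0.87, with -1.03 in the other probe set, just beyond 2-fold. Without scaling the Nfkbie ratio was -1.54 over TGFbeta and -0.39 over IL-6/IL-23, and that of IL-6/IL-23 over TGFbeta was -1.15 in place of -0.23. Medians over all genes without scaling were -0.42, 0.41 and -0.85 in these comparisons. By the brightest probe set after quantile normalization, Nfkbie was the 1 inhibitor of this class to reach 2-fold, and after median scaling Nfkbia reached it too, over IL-6/IL-23.

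Nfkbia, the inhibitor that NF-κB induces most directly, was read by 5 probe sets. The brightest gave 5030 with IL-6/TGFbeta, 7613 with IL-6/IL-23 and 6410 with TGFbeta. Over TGFbeta the 5 probe sets of Nfkbia lay between -0.78 and -0.35, and over IL-6/IL-23 between -0.98 and -0.22, below 0 in each case and short of 2-fold. For IL-6/IL-23 over TGFbeta they lay between -0.44 and 0.25 and did not share a sign. Nfkbib read 672 with IL-6/TGFbeta, 960 with IL-6/IL-23 and 662 with TGFbeta. Its ratio over TGFbeta was 0.02 and over IL-6/IL-23 -0.51, and a further Nfkbib probe set was below the floor on all arrays.

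The nuclear members Bcl3 and Nfkbiz had opposite signs in both comparisons with the IL-6/TGFbeta array. Bcl3, a cofactor that supports T cell survival, read 1008 with IL-6/TGFbeta, 695 with IL-6/IL-23 and 378 with TGFbeta. Bcl3 was 2.67-fold higher with IL-6/TGFbeta than with TGFbeta (1.41), the 109th highest ratio of 8641 genes and 6.46 times the SD between probe sets. It stood at 0.54 over IL-6/IL-23, and at 0.88 for IL-6/IL-23 over TGFbeta. Without scaling the first of these 3 ratios of Bcl3 was 0.93, short of 2-fold, beside a median of -0.42 over all genes, and the last was -0.04 beside -0.85. Bcl3 too had a single probe set.

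Nfkbiz encodes IκBζ, a cofactor known to favour Il17a transcription in mouse Th17 cells. Its brightest probe set read 358 with IL-6/TGFbeta, 703 with IL-6/IL-23 and 511 with TGFbeta. The 3 probe sets of Nfkbiz lay between -0.52 and -0.47 for IL-6/TGFbeta over TGFbeta, a narrow range below 0. They lay between -1.63 and -0.67 over IL-6/IL-23, where the brightest gave -0.97, just short of 2-fold. Its IL-6/IL-23 over TGFbeta ratios were between 0.19 and 1.11. That of the brightest was 0.46 after quantile normalization but -0.45 without scaling, beside a median of -0.85 over all genes. The probe set at the far end of both ranges read 74.5 with IL-6/TGFbeta, just above the floor.

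**Figure D2:**
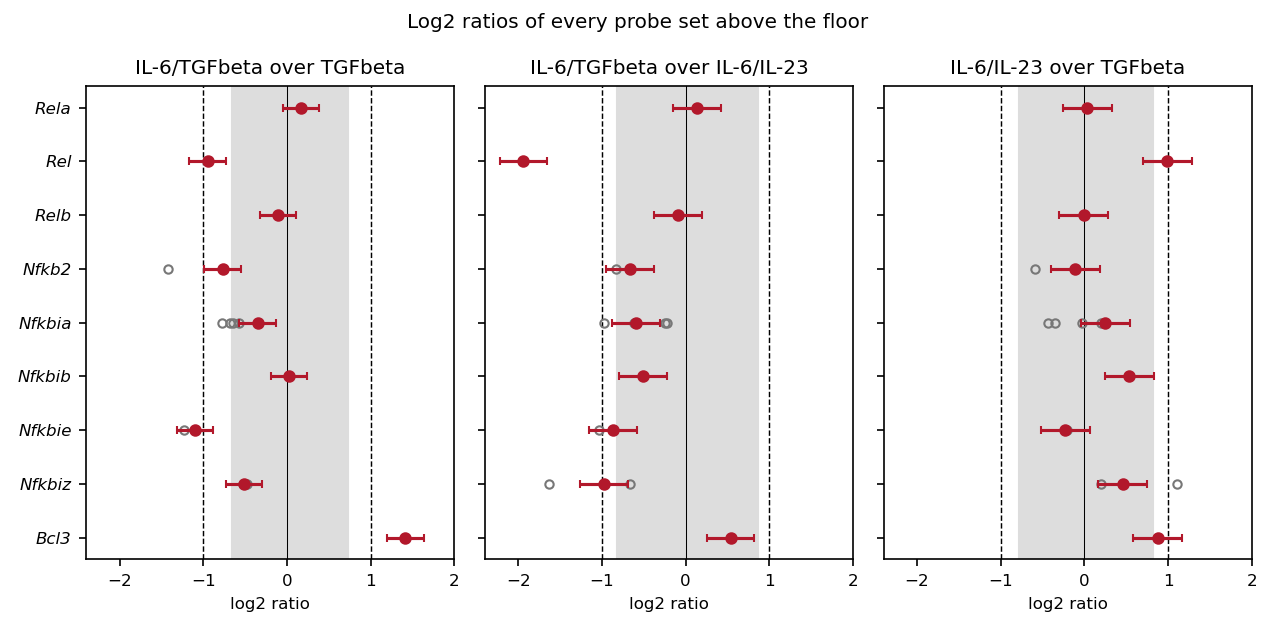
Log2 ratios of the members for the 3 pairs of arrays, with red points for the brightest probe set of each gene and bars of 1 SD between probe sets, and open circles for other probe sets above the floor. The grey band runs from the 5th to the 95th percentile of all genes and dashed lines mark 2-fold. Bcl3 lies beyond 2-fold to the right and Nfkbie to the left over TGFbeta, and Rel lies far left over IL-6/IL-23.

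Over the family, 1 of 9 measured members was at least 2-fold higher with IL-6/TGFbeta than with TGFbeta (Bcl3), where 2.66% of 8641 genes were, and 1 was at least 2-fold lower (Nfkbie), where 1.97% were. Over IL-6/IL-23, 0 members were higher, against 3.8% of 8774 genes, and 1 was lower (Rel), against 3.17%. For IL-6/IL-23 over TGFbeta, 0 members were higher and 0 lower, against 3.35% and 3.21% of 8713 genes. With 9 members these counts are too small to be read as a property of the family. Median ratios of the members were -0.35, -0.60 and 0.25 in these comparisons, beside 0.02, -0.04 and 0.06 over all genes. The first 2 comparisons share the IL-6/TGFbeta array, so a member low on that array is low in both.

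By distance between centred log2 levels over the 3 arrays, the genes most like Rel, the member with the widest range, were Mapre2 (0.05 log2 units), Tnfsf4 (0.06) and Sla (0.15). Tnfsf4, which encodes the OX40 ligand, read 99.9 with IL-6/TGFbeta, 368 with IL-6/IL-23 and 196 with TGFbeta. With only 3 arrays many genes share an order, and 16 genes lay within 0.25 units of Rel.

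Signalling genes upstream of the family were mostly level by the brightest probe set of each gene, which all list counts use. Other probe sets could pass 2-fold where the brightest did not. Examples are Malt1 over IL-6/IL-23 (1.20 against 0.38) and Traf1 over TGFbeta (-1.01 against -0.72). Of 22 listed activators 18 were measured, and over TGFbeta 1 was higher with IL-6/TGFbeta and 1 lower (median -0.02), beside 2.66% and 1.97% of all genes. Malt1, the protease and scaffold that links the T cell receptor to the IκB kinases, read 3859 with IL-6/TGFbeta, 2958 with IL-6/IL-23 and 1525 with TGFbeta. Its ratio over TGFbeta was 1.34, and 0.87 without scaling, beside a median of -0.42 over all genes. Ikbke, an IκB kinase-related gene, read 167, 201 and 477 in that order (-1.51 over TGFbeta). Both arrays with IL-6 lay below the TGFbeta array for Ikbke.

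Over IL-6/IL-23, the activators again held 1 higher and 1 lower gene (median 0.09), beside 3.8% and 3.17% of all genes. Traf6, a ubiquitin ligase that activates the kinase cascade, read 470 with IL-6/TGFbeta, 177 with IL-6/IL-23 and 486 with TGFbeta. It was low on the IL-6/IL-23 array alone (1.41 for IL-6/TGFbeta over IL-6/IL-23, and -1.46 for IL-6/IL-23 over TGFbeta). Traf1, an adaptor and an NF-κB target, read 249, 553 and 409 in the same order. Its ratio over IL-6/IL-23 was -1.15, and -0.66 without scaling, beside a median of 0.41 over all genes. For IL-6/IL-23 over TGFbeta, 0 activators were higher and 2 lower, Traf6 and Ikbke (-1.25), with a median of 0.06, beside 3.35% and 3.21% of all genes. Without scaling 9 activators were lower in that comparison, where the median of all genes was -0.85.

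Inhibitors outside the family included Tnip2 and N4bp1, which were higher with IL-6/TGFbeta than on each of the other arrays. Of 14 listed, 13 were measured, and 2 were higher and 0 lower over TGFbeta (median 0.03, beside 2.66% and 1.97% of all genes) and over IL-6/IL-23 (median 0.15, beside 3.8% and 3.17%). Tnip2, which encodes an A20-binding inhibitor, read 561 with IL-6/TGFbeta, 217 with IL-6/IL-23 and 181 with TGFbeta (1.63 over TGFbeta and 1.37 over IL-6/IL-23). N4bp1, reported as a brake on NF-κB, read 924, 236 and 459 in that order (1.97 over IL-6/IL-23). The N4bp1 ratio over TGFbeta was 1.01, at the threshold, but 0.88 after median scaling and 0.53 without scaling, both short of 2-fold. Medians over all genes were -0.08 and -0.42 in these 2 scalings. For IL-6/IL-23 over TGFbeta, 0 were higher and 0 lower (median -0.08), and 7 were lower without scaling, where the median of all genes was -0.85. After quantile normalization, a dimmer Tax1bp1 probe set gave -1.86 in that comparison, against -0.44 for the brightest. Nfkbid, a further nuclear IκB gene, read 1135 with IL-6/TGFbeta, 1355 with IL-6/IL-23 and 879 with TGFbeta, within 2-fold throughout. Tnfaip3, which encodes A20 itself, read 860, 982 and 561 in that order, also within 2-fold. Tnip1, on the same list, went the opposite way to Tnip2 within 2-fold. It read 827, 1322 and 1489 in that order (-0.85 over TGFbeta and -0.68 over IL-6/IL-23). Nfkbid, Tnfaip3, Tnip1 and Tax1bp1 are named in addition to the genes beyond 2-fold by their brightest probe set.

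Among reported target genes of NF-κB, 22 of 25 listed were measured. Over TGFbeta 0 were higher with IL-6/TGFbeta and 4 lower (median -0.48), beside 2.66% and 1.97% of all genes. These were the chemokine genes Ccl3 (-2.68) and Ccl4 (-1.20), the maturation marker Cd83 (-1.55) and the adhesion molecule Icam1 (-1.03). Over IL-6/IL-23, 1 was higher and 6 were lower (median -0.46), beside 3.8% and 3.17% of all genes, with Ccl3 at -3.56, the growth factor Il2 at -3.11, Ccl4 at -2.31 and the lymphotoxin gene Lta at 1.93. Without scaling 4 of the 6 remained lower, and Ier3 (-0.77) and Traf1 (-0.66) fell short of 2-fold, beside a median of 0.41 over all genes. Of the 6, Csf2 was below the floor with IL-6/TGFbeta. For IL-6/IL-23 over TGFbeta, 4 were higher and 3 lower (median 0.27), led by Il2 (3.85), Lta (-2.34), Ier3 (2.21) and Cd83 (-2.02), beside 3.35% and 3.21% of all genes. Without scaling 2 were higher (Il2 and Ier3) and 5 lower, with Ccl4 at 0.19 and Csf2 at 0.05, beside a median of -0.85 over all genes.

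Il2, a gene that c-Rel is known to drive, read 1208 with IL-6/TGFbeta, 10464 with IL-6/IL-23 and 726 with TGFbeta. Its highest array was that of Rel, but IL-6/TGFbeta was lowest for Rel and TGFbeta was lowest for Il2. Lta read 5684 with IL-6/TGFbeta, 1487 with IL-6/IL-23 and 7534 with TGFbeta, and was thus lowest where Rel and Il2 were highest. The list's members therefore did not share 1 order over the arrays.

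**Figure D3:**
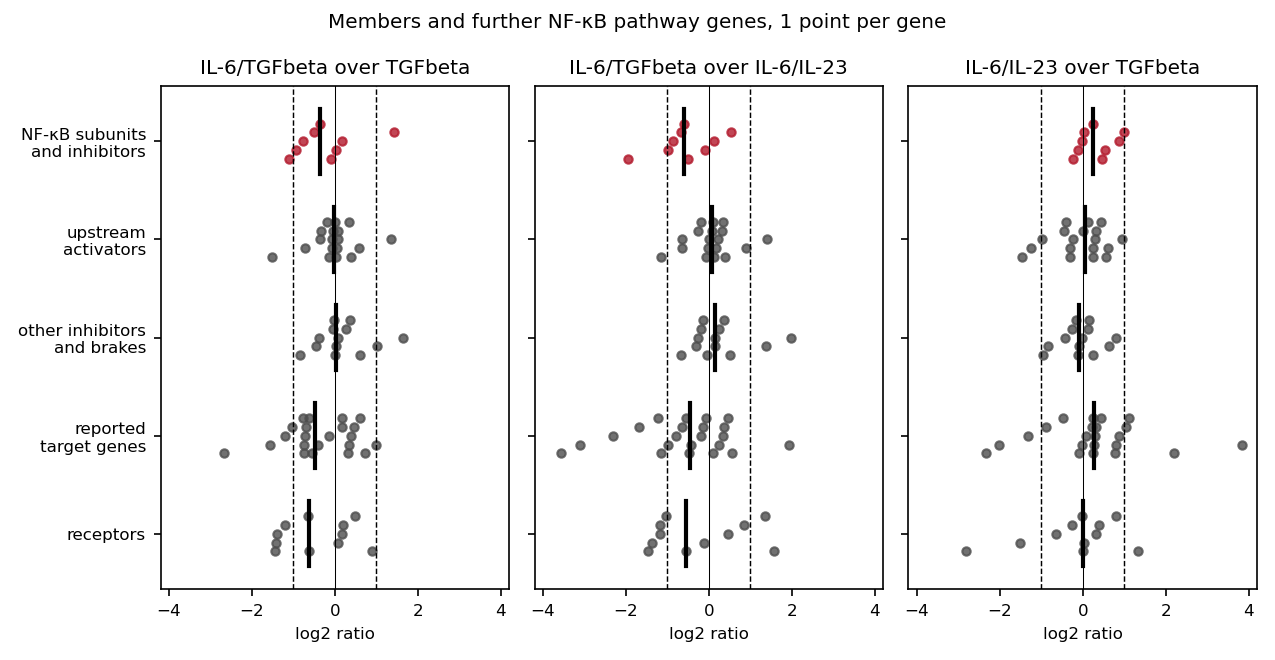
Log2 ratios of the 9 members (red) and of 4 further gene lists (grey) for the 3 pairs of arrays, 1 point per gene with black bars at the medians and dashed lines at 2-fold. Reported target genes and receptors have medians below 0 in both comparisons with the IL-6/TGFbeta array, and upstream activators lie around 0. Without scaling, the median of receptors was 0.03 over IL-6/IL-23, beside 0.41 over all genes.

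Receptors that signal to NF-κB held 11 measured genes of 14 listed. Over TGFbeta, 0 were higher with IL-6/TGFbeta and 4 lower (median -0.63), beside 2.66% and 1.97% of all genes. The lower ones were Cd40 (-1.45), the costimulatory receptors Tnfrsf9 (-1.43) and Tnfrsf18 (-1.39), and Il18r1 (-1.20). Over IL-6/IL-23, 2 were higher and 5 lower (median -0.55), beside 3.8% and 3.17% of all genes, with Tnfrsf1b, the type 2 TNF receptor, at 1.57, Tnfrsf4, which encodes OX40, at -1.46 and Tnfrsf18 at -1.38. Without scaling only Tnfrsf4 (-1.13) of these 5 was still 2-fold lower, while Tnfrsf18 (-0.96), Tnfrsf9 (-0.72), Il1r1 (-0.60) and Cd27 (-0.52) were not. The median of the receptors was then 0.03, beside 0.41 over all genes. Tnfrsf4 read 2245 with IL-6/TGFbeta, 6164 with IL-6/IL-23 and 3546 with TGFbeta, the same order as Rel.

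For IL-6/IL-23 over TGFbeta, 1 receptor was higher and 2 were lower (median 0.02), beside 3.35% and 3.21% of all genes. Tnfrsf1b stood at -1.50, and Il1r1, the IL-1 receptor, was below the floor with TGFbeta and read 187 with IL-6/IL-23, at least 2.52-fold above the floor. Without scaling that ratio for Il1r1 was 0.73, short of 2-fold, and 0 receptors were higher, beside a median of -0.85 over all genes. Cd40 was below the floor with IL-6/IL-23, where it was at least 7.03-fold lower than with TGFbeta, and it was at least 2.57-fold higher with IL-6/TGFbeta than with IL-6/IL-23. Cd40 and Cd83 are also expressed by B cells and dendritic cells. Both read highest with TGFbeta, while the 4 B cell markers were below the floor on every array. Of the 8 myeloid and dendritic markers, Mpeg1 was above the floor with TGFbeta alone and Csf1r with IL-6/TGFbeta alone. The others were below it on every array, so these markers did not share a direction. The part of other cells in these values was not tested.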

How the data were processed

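Biotin-labelled cRNA from 10 µg total RNA was hybridized to Affymetrix mouse arrays, 1 per condition, per the labels' protocols. The authors deposited 1 linear intensity per probe set and array; how probes were summarized, scaled and corrected for background is not given in the sources used here. From 45101 probe sets, 64 controls were left out and log2 values were quantile-normalized (limma 3.58.1, R 4.3.3), which removes any real difference in total mRNA. Of 45037 probe sets, 34945 had 1 gene symbol, 932 several and 9160 none (platform annotation). Entrez identifiers of 34741 matched the RefSeq table of GRCm38.p6. A gene is represented by its brightest probe set. The floor is the 95th percentile of 40 probe sets of 24 tissue-restricted genes. The SD between probe sets comes from the median absolute deviation of differences between a gene's 2 brightest probe sets (3364 to 3400 genes). Members, lists, floor genes and the naming rule (all members, up to 4 genes beyond 2-fold per list and comparison, 3 genes most like the widest-ranging member) were chosen with earlier results of these data known. Calls were tested on simulated data. Alternatives were 2 scalings, 2 floors, 2 probe set rules and a 1.5-fold rule. Array number limits precision.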

Additional observations from a re-analysis of the deposited data

How the results depend on the processing

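With 1 array per condition, leaving out a replicate was not possible. No paired analysis was possible because each condition has 1 sample. Of 162 member ratios recomputed under 6 alternatives, 123 moved by less than 1 SD between probe sets and 39 by more. Many of the 123 could not move, so their number is no measure of stability. Halving the floor returned every member ratio unchanged, and doubling it changed only ratios of Rel. The 2 probe set rules cannot change Rel, Rela, Relb and Bcl3, which have 1 probe set each. In 14 of the 162 the sign changed, and none of these was a ratio that reached 2-fold after quantile normalization. Counts of lower members over TGFbeta were 2 after median scaling, 3 without scaling, 2 with the mean of probe sets, 2 with the dimmest probe set and 3 with a 1.5-fold rule, against 1. Over IL-6/IL-23 they were 4 after median scaling, 2 with the mean, 3 with the dimmest probe set and 5 with a 1.5-fold rule, against 1. Without scaling, 0 members were higher over TGFbeta in place of 1, and for IL-6/IL-23 over TGFbeta 2 were lower in place of 0. In that last comparison the count of higher members was 1 after median scaling, 1 with the dimmest probe set and 2 with a 1.5-fold rule, in place of 0. The members' median moved to -0.73 (IL-6/TGFbeta over TGFbeta), -0.23 (over IL-6/IL-23) and -0.45 (IL-6/IL-23 over TGFbeta) without scaling, and to 0.56 in the last after median scaling. Medians over all genes moved too, to -0.42, 0.41 and -0.85 without scaling, and to 0.13 in the last after median scaling. The members' median less that of all genes was -0.30, -0.64 and 0.40 without scaling, against -0.37, -0.56 and 0.19 after quantile normalization. With the mean of probe sets it was -0.04 in the last. Scaling also set the balance over all genes. The share of calls that were higher was 57.5%, 54.5% and 51.0% in these 3 comparisons, 45.2%, 37.5% and 55.0% after median scaling, and 15.2%, 89.1% and 2.37% without scaling. Halving or doubling the floor changed no count of members. The mean of probe sets includes a dim Nfkbib probe set below the floor, and the cause of the other changes was not tested.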
